A study of Mus musculus with 8 samples.

Results

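The 8 genes described here encode Src family tyrosine kinases (Fyn, Src, Yes1, Lyn and Lck), the kinase that inhibits them (Csk), a membrane protein that anchors Csk (Pag1) and focal adhesion kinase (Ptk2). They were chosen by name, with earlier results of these data known, and the study itself reports lower Fyn without Med23. All 8 are among the 24346 genes of the expression table. RNA-seq was performed on induced immature oligodendrocytes (iOLs), 4 Med23+/+ and 4 Med23-/- libraries. Med23 encodes a subunit of Mediator, the complex that links transcription factors to RNA polymerase II. OPCs, the precursors of oligodendrocytes, were immunopanned from mouse brains at postnatal day 7 through CD140a, the product of Pdgfra, after plates coated with BSL1 had removed endothelial cells and microglia, expanded with the mitogens NT-3 (1 ng/mL) and PDGF-AA (10 ng/mL), and differentiated for 1 day with 15 nM T3 (triiodothyronine) and 10 ng/mL ciliary neurotrophic factor. Med23-/- OPCs came from Med23 fl/fl;Olig1-Cre+/- mice, in which Cre from the Olig1-Cre line deletes floxed Med23 in the oligodendrocyte lineage. Med23+/+ OPCs came from control mice, which the study describes for this line as Med23 fl/fl littermates, without naming Cre. The floxed allele may thus be shared by both groups, with Cre only in the Med23-/- group. An effect of Cre itself cannot then be told apart from loss of Med23. The labels number the libraries 1 to 4 within each genotype and do not say whether these came from separate mice or cultures, so p-values measure the spread between these libraries, which may be technical.

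Src family kinases sit at the inner face of the plasma membrane, where they pass signals from adhesion molecules and receptors to the cytoskeleton. They are held inactive when Csk phosphorylates a tyrosine near their carboxyl end, and they become active when this tyrosine is dephosphorylated or its contact is broken. Fyn is the family member best known in oligodendrocytes: contact with axons or laminin activates it, it restrains RhoA through p190RhoGAP so that processes can grow, and it promotes local translation of myelin basic protein. Loss of Fyn in mice reduces myelin in the brain.

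The stretch of coding sequence that holds the codon of this tyrosine is shown for the 5 Src family genes, since it is the feature through which Csk controls each of them. It runs from 4 codons before the tyrosine codon, in capitals, to the stop codon, and was read 5′ to 3′ on the coding strand from GENCODE vM21 transcripts (mm10). In each gene it lies in a single exon, at chr10:39563937-39563972 (+) for Fyn, chr2:157469926-157469961 (+) for Src, chr5:32684724-32684759 (+) for Yes1, chr4:3789915-3789944 (+) for Lyn and chr4:129548798-129548827 (-) for Lck.
Fyn: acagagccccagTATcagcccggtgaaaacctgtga
Src: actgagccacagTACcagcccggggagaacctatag
Yes1: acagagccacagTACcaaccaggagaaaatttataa
Lyn: acagaagggcagTATcagcagcaaccgtag
Lck: acagagggccagTACcagccccagccttga
The tyrosine codon is followed by 6 codons before the stop in Fyn, Src and Yes1 and by 4 in Lyn and Lck. Over the 36 bases, Src differs from Fyn at 8 positions and Yes1 at 9, and none of these differences alters the encoded amino acids.

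Values are FPKM (fragments per kilobase of transcript scaled to the mapped fragments of the library), which correct for length, so levels of different genes can be compared. Read counts were not used here and depth is unknown, but spacing among values under 0.3 FPKM put the worth of a read at 0.745 to 1.02 times that in Med23+/+ replicate 1, with overlapping ranges in the genotypes. Med23 itself had 12.7, 12.2, 12.6 and 12.6 FPKM in the libraries labelled Med23+/+, and 8.40, 7.93, 8.49 and 8.21 FPKM in those labelled Med23-/-. The genotypes did not overlap, and the mean of the latter was 0.658 times that of the former (12.5 ± 0.225 FPKM for Med23+/+ against 8.26 ± 0.247 FPKM for Med23-/-, SD, n = 4 per genotype). A value for the whole gene does not show which part of the transcript remained or in which cells. The study checked the deletion by western blot of primary OPCs. The fold change of a gene is given as log2(FPKM + 1) of Med23-/- minus Med23+/+, and differences were tested with limma over the 12328 genes that averaged 1 FPKM or more. The lineage genes Olig1 (706 and 686 FPKM on average in Med23+/+ and Med23-/- iOLs) and Olig2 (260.5 and 380.1 FPKM) were present in every library. Markers were called by limma adjusted p under 0.05. By this threshold 14.1% of all genes tested were lower in Med23-/- iOLs and 15.9% were higher. Of 11 oligodendrocyte lineage markers, 7 were lower in Med23-/- iOLs and 2, the OPC markers Pdgfra and Cspg4, were higher. The T cell genes Cd3e, Cd3d and Cd3g were at 0 in every library, and the summed level of 8 microglia markers was at most 1.89 FPKM. Of 5 astrocyte markers 2 were lower and none was higher, and their summed level overlapped (44.0 to 94.1 FPKM in Med23+/+, 34.5 to 62.8 FPKM in Med23-/-). Of 5 endothelial markers only Kdr was tested, and it was higher in Med23-/- iOLs (log2 fold change 0.77, limma adjusted p = 0.0398). The summed level of the 5 was 0.496 to 1.17 FPKM in Med23+/+ and 1.13 to 2.97 FPKM in Med23-/- libraries. Kdr, at 0.505 and 1.65 FPKM on average, made up most of this sum. The other 4 stayed under 1 FPKM, with Pecam1 and Flt1 lower on average in Med23-/- libraries and Cldn5 and Cdh5 higher. The part of endothelial cells in the results was not tested. Of 5 neuron markers, all were higher in Med23-/- iOLs, and none was at 0. Their summed level ran from 35.4 to 57.5 FPKM in Med23+/+ and from 73.4 to 144 FPKM in Med23-/- libraries. In bulk RNA, fewer cells of a type and less RNA per cell cannot be told apart.

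In Med23-/- iOLs the expression of Fyn fell to 0.420 times its Med23+/+ level while that of Src rose to 1.99 times. Pag1, Yes1 and Ptk2 fell by smaller amounts, and Csk and Lyn did not pass the test. Of the 8 genes 7 were expressed highly enough to be tested, and Lck was not. By limma adjusted p under 0.05, 4 of the 7 were lower, against 14.1% of all genes tested, and 1 was higher, against 15.9%. With the further limit of a fold change above 2, only Fyn was called lower (1.75% of all genes tested) and none of the 7 was called higher (2.98% of all genes tested). In the same 4 genes every Med23-/- library lay below every Med23+/+ library, as in 15.3% of all genes tested, and in Src every Med23-/- library lay above, as in 16.3%. The median log2 fold change was -0.31 over the 7 genes and -0.01 over all genes tested.

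**Figure D1:**
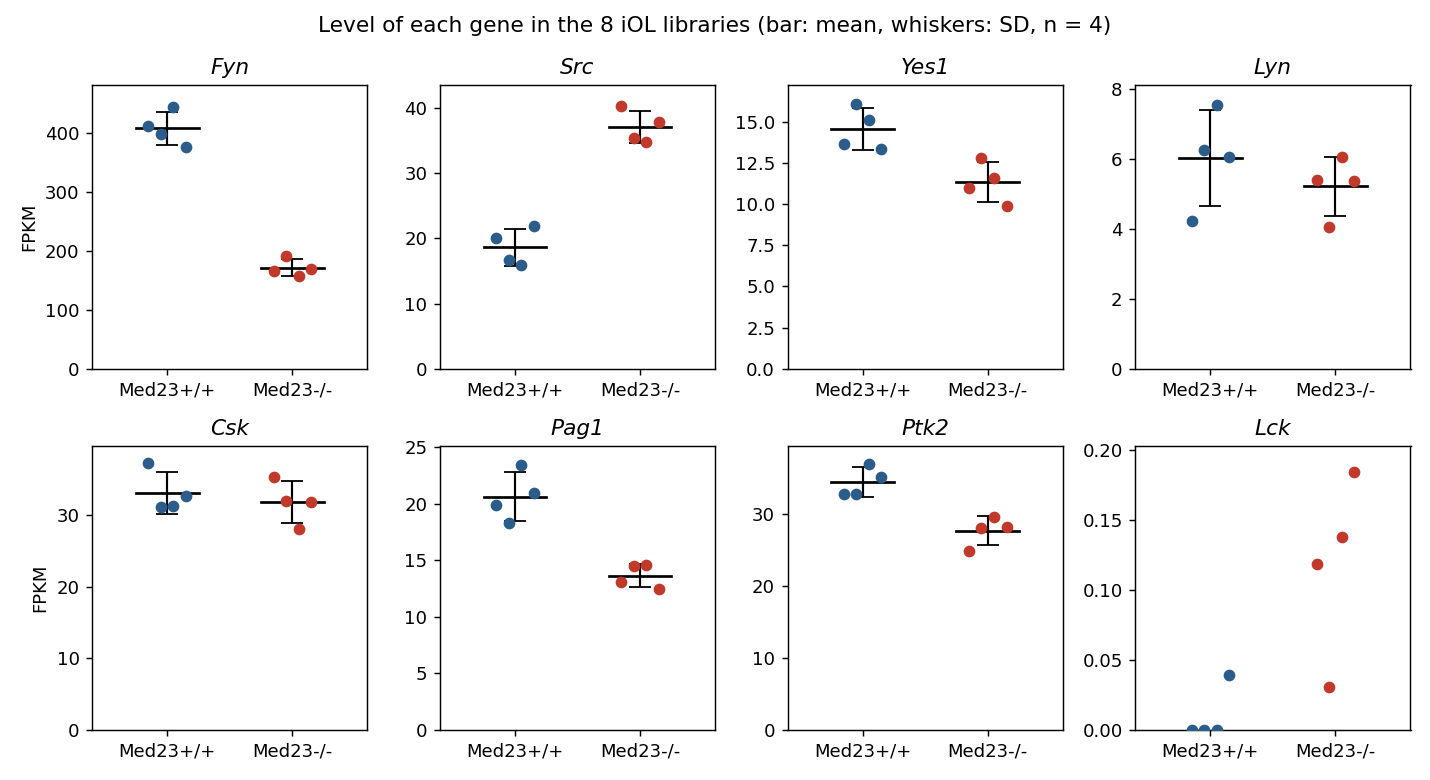
FPKM (vertical axis, linear, from 0) of each gene in the 4 Med23+/+ (blue) and 4 Med23-/- (red) libraries, with the mean and SD of each genotype except for Lck, whose points only are drawn. The genotypes do not overlap for Fyn, Src, Yes1, Pag1 and Ptk2, and Lck stayed under 0.2 FPKM.

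Fyn (chromosome 10, 39368855 to 39565381, plus strand) was by far the most abundant of the 8 transcripts. The Med23+/+ libraries held 412, 398, 444 and 376 FPKM of it, the Med23-/- libraries 166, 192, 158 and 169.5 FPKM. The lowest Med23+/+ library thus held 376 FPKM and the highest Med23-/- library 192 FPKM. Means were 408 ± 28.4 and 171 ± 14.4 FPKM (SD, n = 4 per genotype), with a log2 fold change of -1.25 (95% confidence interval -1.45 to -1.05, limma adjusted p = 2.71e-05). Among the 12328 genes tested, 1.33% had a log2 fold change as low or lower. By mean level Fyn ranked 168th of the genes tested in Med23+/+ and 348th in Med23-/- iOLs. In the 4 genes with no overlap that fell, and in Src, the two-sided exact permutation test gave p = 0.0286, the smallest that 4 libraries against 4 allow.

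Src (chromosome 2, 157418444 to 157471862, plus strand), the founding member of the family, moved the other way. Med23+/+ libraries showed 20.1, 16.6, 15.99 and 22.0 FPKM, whereas Med23-/- libraries showed 40.2, 35.4, 34.7 and 37.9 FPKM. The lowest Med23-/- library exceeded the highest Med23+/+ library by more than the range within either genotype. The mean rose from 18.7 ± 2.83 to 37.1 ± 2.51 FPKM (SD, n = 4 per genotype), or 0.96 on the log2 scale (95% confidence interval 0.72 to 1.201, limma adjusted p = 0.000219), which 3.47% of the genes tested reached or exceeded. This fold change lay just under the limit of 2-fold, and it passed that limit under quantile normalization (1.02) and without Med23+/+ replicate 4 (1.04). Src is also transcribed in neurons, and the summed level of the neuron markers given above was higher in all 4 Med23-/- libraries. In the Med23-/- libraries that sum was 97.1, 73.4, 144 and 119 FPKM, and its part in the Src values was not tested.

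The promoters of Fyn and Src are shown because these genes moved in opposite directions, with that of Yes1, a close relative of both that also fell. Sp1, the factor examined in the study, binds GC boxes. Each window shown covers 250 bases before to 50 after 1 start in RefSeq (GRCm38.p6, the assembly of mm10), 5′ to 3′ on the strand of the gene. Matches to GGGCGG on either strand are in capitals. GENCODE vM21 lists 9 transcripts for Fyn, 8 for Src and 5 for Yes1, so other starts may lie outside these windows.
Fyn, chr10:39369549-39369848 (+): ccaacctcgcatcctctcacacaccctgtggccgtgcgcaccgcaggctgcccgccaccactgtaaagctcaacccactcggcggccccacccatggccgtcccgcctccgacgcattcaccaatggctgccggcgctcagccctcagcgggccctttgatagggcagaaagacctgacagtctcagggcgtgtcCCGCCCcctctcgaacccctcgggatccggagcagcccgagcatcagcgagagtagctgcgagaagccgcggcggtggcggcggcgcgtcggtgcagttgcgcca
Src, chr2:157424043-157424342 (+): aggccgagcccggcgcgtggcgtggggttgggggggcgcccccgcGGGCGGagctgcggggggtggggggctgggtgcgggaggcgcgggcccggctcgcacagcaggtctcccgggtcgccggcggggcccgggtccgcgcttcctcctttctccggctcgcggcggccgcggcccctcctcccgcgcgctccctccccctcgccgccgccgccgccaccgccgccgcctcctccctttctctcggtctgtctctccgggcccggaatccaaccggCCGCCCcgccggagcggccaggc
Yes1, chr5:32610921-32611220 (+): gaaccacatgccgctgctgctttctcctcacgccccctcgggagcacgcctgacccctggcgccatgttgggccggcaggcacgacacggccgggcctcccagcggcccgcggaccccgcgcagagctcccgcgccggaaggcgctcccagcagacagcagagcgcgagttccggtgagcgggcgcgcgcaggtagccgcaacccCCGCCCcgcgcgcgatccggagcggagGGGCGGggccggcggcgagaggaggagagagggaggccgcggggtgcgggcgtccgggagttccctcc
The Fyn window held 1 match, 55 bases before the start. The Src window held 2, starting 205 bases before and 27 bases after the start, and the Yes1 window held 2, at 45 and 18 bases before it. Among all 32851 windows, 35.7% held at least 1 match and 19.5% held 2 or more. The GC content was 69.0% in the Fyn window, 82.3% in the Src window and 77.0% in the Yes1 window, against a median of 52.7% over all windows. The table also lists 2 windows each for Csk and Lck, of which 1 each held a single match, and has no entry for Lyn, Pag1 and Ptk2. A match is a description of the letters only.

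Yes1 (chromosome 5, 32611171 to 32687057, plus strand), which overlaps with Src in function in many cells, was measured at 13.7, 16.1, 15.1 and 13.4 FPKM across Med23+/+ libraries, and at 10.97, 12.8, 11.6 and 9.90 FPKM across Med23-/- libraries. The genotypes did not overlap, but the gap between them, from 12.8 to 13.4 FPKM, was small beside the spread within each. The mean fell from 14.6 ± 1.28 to 11.3 ± 1.21 FPKM (SD, n = 4 per genotype), or -0.34 on the log2 scale (95% confidence interval -0.55 to -0.12, limma adjusted p = 0.0243). The call for Yes1 was lost when Med23+/+ replicate 2 or 3 or Med23-/- replicate 1 or 4 was left out, with limma adjusted p of 0.0642, 0.0635, 0.0603 and 0.0545 in that order. Lyn (chromosome 4, 3678115 to 3813122, plus strand), the member of the family that in OPCs has been tied to growth factor signals, reached 4.23, 6.26, 7.56 and 6.07 FPKM with Med23 and 5.40, 4.05, 6.06 and 5.37 FPKM without it. These ranges overlapped widely, and the log2 fold change of -0.16 had a 95% confidence interval from -0.52 to 0.19 (limma adjusted p = 0.471).

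Lck (chromosome 4, 129548344 to 129573641, minus strand), the Src family kinase of T cells, was close to absent. It was listed at 0 in Med23+/+ replicates 1 to 3 and at 0.0389 FPKM in replicate 4, and at 0.118, 0.0306, 0.138 and 0.184 FPKM in the Med23-/- libraries. Values above 0 were thus found in 1 Med23+/+ and 4 Med23-/- libraries, and the ranges overlapped (two-sided exact permutation test, p = 0.0571). The summed level of 5 T cell markers was 0.166 to 0.285 FPKM in Med23+/+ and 0.213 to 0.445 FPKM in Med23-/- libraries, and its part in the Lck values was not tested. Fgr and Blk, Src family kinases of blood cells outside this set, also stayed under the filter. Blk was at 0 in every library, and Fgr reached at most 0.0605 FPKM in a library.

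The fall of Fyn and the rise of Src changed the make-up of the family. The summed FPKM of the 5 Src family genes described here came to 447 ± 27.3 with Med23 and 225 ± 13.9 without it (SD, n = 4 per genotype). Fyn made up 91.2% ± 0.819 of this sum in Med23+/+ and 76.0% ± 1.79 in Med23-/- libraries, and Src 4.21% ± 0.841 and 16.5% ± 1.48 (SD, n = 4 per genotype). The shares of both genes were without overlap, since Fyn ranged from 90.1% to 92.0% in Med23+/+ and from 74.5% to 78.6% in Med23-/- libraries. Without Fyn, the sum was higher in the Med23-/- libraries, at 52.3 to 56.7 FPKM against 38.0 to 41.4 FPKM. Src formed 47.5% ± 6.33 of that remainder in Med23+/+ and 68.9% ± 2.44 in Med23-/- iOLs, and Yes1 37.2% ± 3.93 and 21.1% ± 2.70 (SD, n = 4 per genotype). The ratio of Fyn to Src FPKM was 20.5, 23.9, 27.8 and 17.1 in the Med23+/+ libraries and 4.12, 5.41, 4.55 and 4.48 in the Med23-/- libraries. These shares and ratios are built from the genes above and were not tested.

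**Figure D2:**
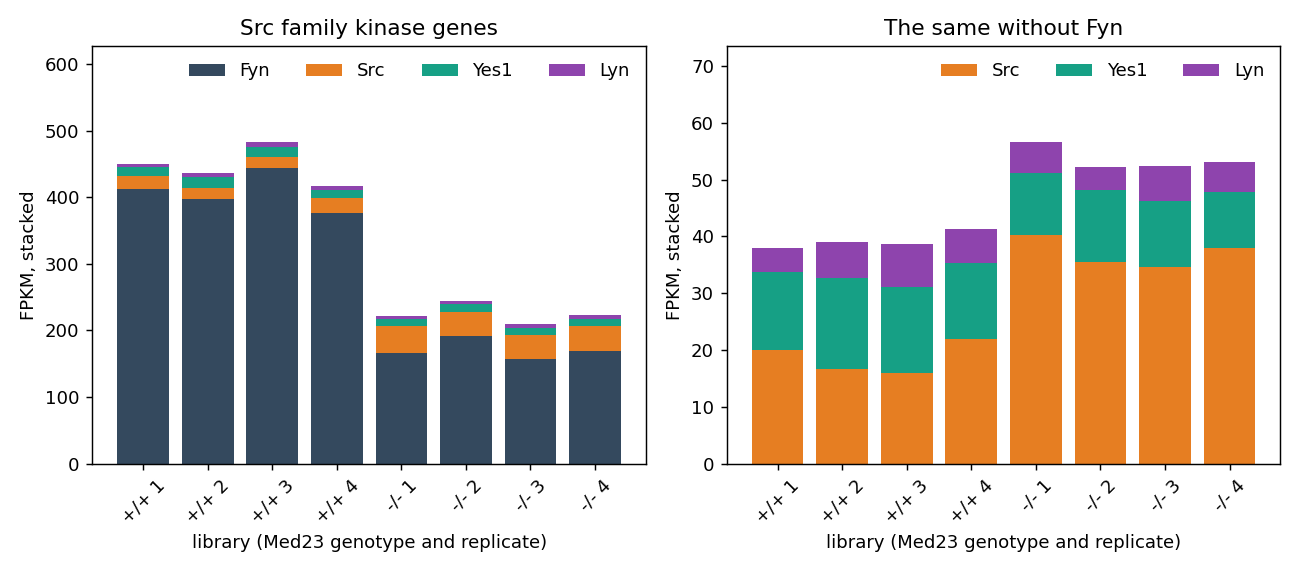
Stacked FPKM of Fyn, Src, Yes1 and Lyn in each library (left) and of Src, Yes1 and Lyn alone (right, on its own scale), from 0. The full stack is lower in each of the 4 Med23-/- libraries, whereas the stack without Fyn is higher in each of them.

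Csk (chromosome 9, 57626646 to 57653631, minus strand), the kinase that phosphorylates the tail tyrosine, showed no difference past the test. Its levels were 37.4, 31.1, 31.3 and 32.7 FPKM for Med23+/+, and 35.3, 31.96, 28.1 and 31.8 FPKM for Med23-/-. The ranges overlapped from 31.1 to 35.3 FPKM, and the log2 fold change of -0.06 had a 95% confidence interval from -0.26 to 0.15 (limma adjusted p = 0.678), with a sign that flipped to 0.01 under quantile normalization. The summed FPKM of the 5 Src family genes was 6.31 to 7.63 times that of Csk in the Med23-/- libraries. In the Med23+/+ libraries the sum was 12.1 to 15.4 times that of Csk. Src alone was at 0.511 to 0.672 times the level of Csk in Med23+/+ and at 1.11 to 1.23 times in Med23-/- libraries. These are ratios of RNA levels, and neither protein levels nor the control of the kinases by Csk was tested.

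Pag1 (chromosome 3, 9687479 to 9833679, minus strand) encodes the lipid raft adaptor that recruits Csk to the membrane once it has been phosphorylated by Src family kinases. Med23+/+ libraries contained 19.9, 18.2, 23.4 and 20.9 FPKM, and Med23-/- libraries 13.1, 14.5, 14.5 and 12.4 FPKM. All Med23-/- libraries were lower, and the mean fell from 20.6 ± 2.15 to 13.6 ± 1.06 FPKM (SD, n = 4 per genotype). The log2 fold change was -0.56 (95% confidence interval -0.77 to -0.35, limma adjusted p = 0.00186), and 5.79% of the genes tested were as low or lower. The FPKM of Csk was 1.62 ± 0.229 times that of Pag1 in Med23+/+ and 2.35 ± 0.346 times in Med23-/- iOLs (SD, n = 4 per genotype).

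Ptk2 (chromosome 15, 73205102 to 73423280, minus strand) encodes focal adhesion kinase, which joins integrins to Src family kinases. Med23+/+ libraries gave 32.7, 32.7, 37.0 and 35.1 FPKM and Med23-/- libraries 24.8, 28.0, 29.6 and 28.1 FPKM, without overlap. The mean fell from 34.4 ± 2.06 to 27.6 ± 2.03 FPKM (SD, n = 4 per genotype), or -0.31 on the log2 scale (95% confidence interval -0.48 to -0.13, limma adjusted p = 0.0166). Of the genes tested, 15.4% had a log2 fold change as low or lower.

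**Figure D3:**
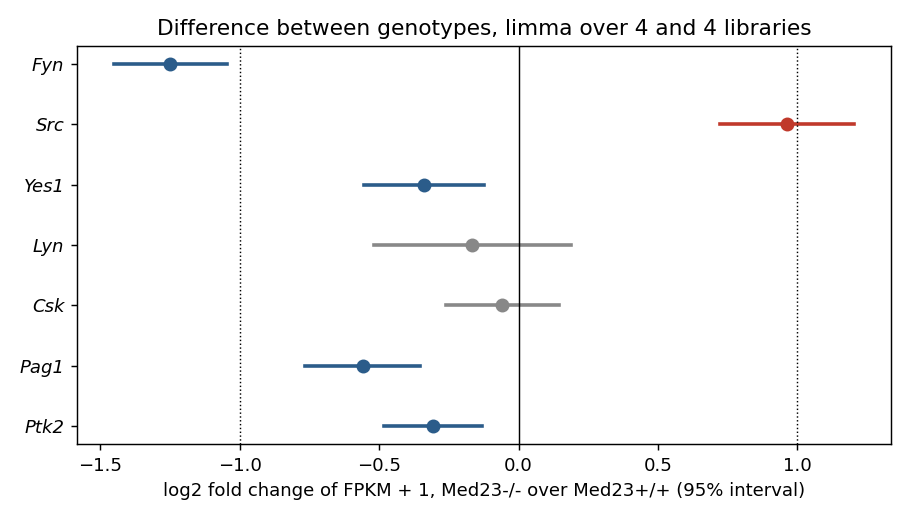
Log2 fold change of FPKM + 1 (Med23-/- over Med23+/+, horizontal axis) of the 7 tested genes with its 95% confidence interval from limma, blue for lower, red for higher and grey for not past the threshold. Dotted lines mark a fold change of 2, which the estimate for Fyn exceeds and that for Src, at 0.96, nearly reaches.

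The order of the levels differed between the genotypes mainly through Src. In Med23+/+ iOLs Fyn stood 11.9 times above Ptk2, which was followed by Csk, Pag1, Src, Yes1, Lyn and Lck. The neighbours Ptk2 and Csk overlapped there (Ptk2 was the higher in 3 of 4 libraries), as did Pag1 and Src (2 of 4) and Src and Yes1 (Src the higher in 4 of 4). In Med23-/- iOLs Fyn stood 4.62 times above Src, which was followed by Csk, Ptk2, Pag1, Yes1, Lyn and Lck. Src was above Csk in all 4 Med23-/- libraries, although their ranges over the libraries overlapped. The ranges of Csk and Ptk2 and of Pag1 and Yes1 overlapped too. The remaining neighbours in each genotype did not overlap.

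The genes around these kinases were followed in 7 lists of 61 genes, of which 52 were tested. These lists too were chosen with earlier results of these data known. By limma adjusted p 13 of the 52 were lower (14.1% of all genes tested were) and 10 were higher (15.9% of all genes tested were), and their median log2 fold change was -0.12. Past both limits 4 of the 52 were lower (1.75% of all genes tested were) and 1 was higher (2.98% of all genes tested were). Pathway genes named below that are neither past both limits nor at an end of their list were chosen after their values were seen.

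Among the tyrosine phosphatases that act on Src family kinases or their substrates, 6 of 9 were tested. Ptpn5, which encodes STEP, a brain phosphatase that dephosphorylates Fyn, rose from 3.68 ± 0.626 to 14.5 ± 2.10 FPKM (SD, n = 4 per genotype), or 1.73 on the log2 scale (limma adjusted p = 3.22e-05). STEP is best known from neurons, whose marker sum was higher in the same libraries, and the part of those cells in this change was not tested. Ptpn1, which encodes PTP1B, fell by 0.27 on the log2 scale (limma adjusted p = 0.0345). Ptpra, a receptor phosphatase that activates Src and Fyn, had 32.1 ± 4.18 FPKM with Med23 and 33.6 ± 5.12 FPKM without it, and Ptpn11, which encodes SHP2, had 42.2 ± 1.53 and 41.8 ± 0.647 FPKM (SD, n = 4 per genotype), and neither passed the test. Of the 4 adaptors of Csk and Pag1, Cav1, which encodes caveolin-1, fell from 7.95 ± 1.89 to 2.26 ± 0.423 FPKM (SD, n = 4 per genotype), or -1.44 on the log2 scale (limma adjusted p = 0.000215). The others did not pass the test, the highest being Lime1 at 0.06. Of the kinases related to Src or Csk, only Matk, which encodes the Csk homologue, was tested, and its log2 fold change of -0.31 did not pass (limma adjusted p = 0.239).

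Of 7 cell surface proteins that signal to Fyn, all were tested, 4 were lower and 1 was higher. Among all genes tested, 14.1% were lower and 15.9% higher by this threshold. Mag, the myelin-associated glycoprotein, fell from 14.2 ± 3.70 to 0.860 ± 0.409 FPKM (SD, n = 4 per genotype), or -3.03 on the log2 scale (limma adjusted p = 1.86e-05). The adhesion molecule L1cam fell by 1.12 on the log2 scale, Ncam1 by 0.44 and the integrin subunit Itgb1 by 0.31, the last with overlapping genotypes (limma adjusted p = 0.000577, 0.00411 and 0.0394). Cntn1, which encodes contactin, a GPI-anchored partner of Fyn, rose from 228 ± 22.1 to 419.5 ± 19.0 FPKM (SD, n = 4 per genotype), or 0.88 on the log2 scale (limma adjusted p = 0.000154). Cntn1 was thus higher in the libraries in which Fyn was lower, and neurons also express it. The netrin receptor Dcc and the integrin subunit Itga6 did not pass the test.

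Of 20 substrates and effectors of Fyn, all tested, 5 were lower, 6 were higher and 9 did not pass the test. By the same threshold 14.1% of all genes tested were lower and 15.9% were higher. Both genes for p190RhoGAP proteins fell, Arhgap5 from 73.8 ± 11.3 to 36.0 ± 7.39 FPKM and Arhgap35 from 147 ± 5.76 to 102 ± 12.01 FPKM (SD, n = 4 per genotype), with log2 fold changes of -1.03 and -0.53 (limma adjusted p = 0.00115 and 0.00246). Rac1, the GTPase of lamellipodia, fell by 0.57 on the log2 scale, Wasl, an actin nucleation factor, by 0.28, and Qk, an RNA-binding protein of myelin transcripts, by 0.73. Rhoa and Cdc42, the other GTPases of the list, had log2 fold changes of -0.22 and -0.12, which did not pass (limma adjusted p = 0.139 and 0.315). Higher were Cdk5r1, which activates Cdk5 and had the highest log2 fold change of the list at 0.90, Vav3 at 0.80, the gene for tau, Mapt, at 0.50, the Reelin adaptor Dab1 at 0.49, Rock2, an effector of RhoA, at 0.42 and the ubiquitin ligase Cblb at 0.38. Cdk5r1, Mapt and Dab1 are expressed in neurons as well, and the part of the higher neuron marker sum in their rise was not tested.

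Of 15 partners of Ptk2, 14 were tested, 2 were lower and 2 were higher by limma adjusted p. Over all genes tested, the shares were similar, at 14.1% lower and 15.9% higher. The lower pair were the docking proteins that Src and focal adhesion kinase phosphorylate, Bcar1 (p130Cas), from 40.1 ± 4.23 to 20.9 ± 4.37 FPKM, and Pxn (paxillin), from 32.3 ± 2.43 to 18.0 ± 2.64 FPKM (SD, n = 4 per genotype). Their log2 fold changes were -0.93 and -0.82 (limma adjusted p = 0.00115 and 0.000474). The exchange factor genes Arhgef7 and Dock1 rose by 0.53 and 0.25 on the log2 scale (limma adjusted p = 0.00186 and 0.0194). Talin (Tln1) and vinculin (Vcl), the structural proteins of focal adhesions, did not pass the test. Ptk2b, the relative of Ptk2 known as Pyk2, was not tested, with at most 0.141 FPKM in a library.

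**Figure D4:**
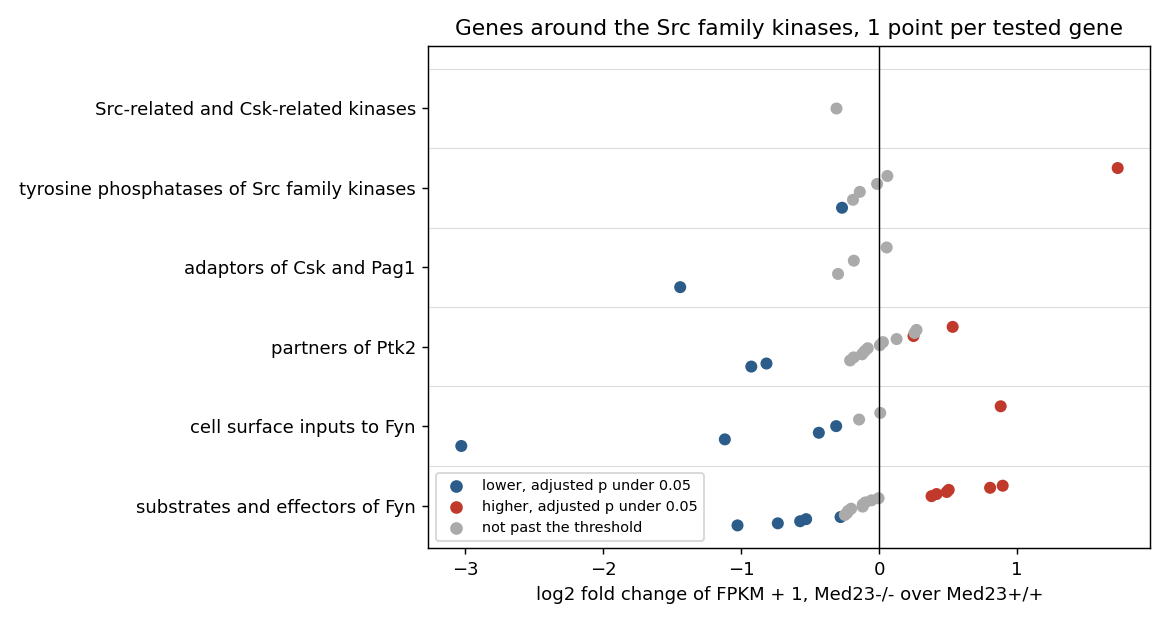
Log2 fold change of FPKM + 1 (Med23-/- over Med23+/+, horizontal axis) of each of the 52 tested genes in 6 lists, 1 point per gene, blue for lower, red for higher and grey for not past the threshold. Mag, at -3.03, and Ptpn5, at 1.73, form the ends of the range.

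The genes whose levels followed that of Fyn most closely were sought by the root mean square difference of log2(FPKM + 1), centred per gene, over the 8 libraries. Among 9433 candidates with a mean of at least 5 FPKM, the nearest were Cdv3 (0.0858), Tcf7l2 (0.0943), Bcor (0.0952), Agpat4 (0.0969) and Ick (0.0978), in log2 units, against a median of 0.626 over all candidates. Tcf7l2, which encodes a transcription factor of differentiating oligodendrocytes, fell from 59.8 ± 2.16 to 22.9 ± 3.92 FPKM, and Cdv3 from 116 ± 8.76 to 48.7 ± 1.87 FPKM (SD, n = 4 per genotype). Of the other kinases and regulators described here, Pag1 came nearest to Fyn, at 0.363 and place 388, and Src lay at 1.12 and place 9005. All 8 libraries entered the measure, so the difference between the genotypes is part of it.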

How the data were processed

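RNA-seq of 8 iOL libraries, 4 per genotype, was analysed from the deposited table. The authors used an Illumina X-10 instrument, Cutadapt for trimming, Tophat2 with its defaults for alignment (mm10) and cuffdiff (-b -u) for quantification. Tool versions, gene annotation and use of strand are not given in the sources used here. The authors deposited FPKM per library and per genotype, with the fold ratio on a log2 scale, its test statistic, p-value and q-value. Only the FPKM of the libraries were used, and 0 library columns were left out.

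Tests used log2(FPKM + 1), a scale that understates changes of weakly expressed genes, for genes averaging 1 FPKM or more. limma 3.58.1 (lmFit, eBayes with trend; R 4.3.3) was applied to both genotypes, with Benjamini-Hochberg adjustment over all 12328 genes. The calculation was tested on simulated data. An exact permutation test, two-sided, was added for single genes. Alternatives were a block for the replicate number, a covariate that separates replicates 1 and 2 from the others, sample weights, no trend, scaling by median ratios, quantile normalization, a pseudocount of 0.1, a filter at 5 FPKM or none, and each library left out in turn. Named were the 8 genes chosen, the listed genes past both limits or at the ends of their list, and the 5 genes nearest to Fyn. The other pathway genes named were chosen after their values were seen. Not every listed gene is reported here. The genes and lists were chosen with earlier results of these data known. Positions are from GENCODE vM21 (mm10). In that annotation Fyn, Yes1, Lyn, Lck, Pag1 and Ptk2 overlap other genes, none of them protein-coding, whose reads may not be separable. Tables and figures were made with Python 3.11.15, pandas 2.3.3 and matplotlib 3.10.9.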

Additional observations from a re-analysis of the deposited data

Results flagged for a closer look

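The value of Lck in Med23+/+ replicate 4, 0.0389 FPKM, stood apart from the other Med23+/+ libraries, which were all listed at 0, so its gap to the nearest library equalled the whole range of the genotype. It was the only such value among the 16 groups of 4 libraries examined for the 8 genes. Chance gives about 1 in 20 groups for continuous values, a rate that does not apply here, since with the other values tied at 0 any value above 0 would have stood apart in this way.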

How the results depend on the processing

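Fyn, Src, Pag1 and Ptk2 kept their direction and their side of the threshold under each alternative, with log2 fold changes from -1.30 to -1.16, 0.89 to 1.04, -0.61 to -0.50 and -0.34 to -0.24. Yes1 kept its direction, from -0.39 to -0.28 with libraries left out in turn, but its call was lost in 4 of these 8 fits (limma adjusted p up to 0.0642). Csk changed sign under quantile normalization (0.0147) and without Med23+/+ replicate 1 (its range with libraries left out was -0.11 to 0.000184), never past the threshold. Without a filter Lck was tested and passed (log2 fold change 0.14, limma adjusted p = 0.0471), so 2 of the 8 genes were higher instead of 1. With the limit of 2-fold, 1 gene (Src) was higher under quantile normalization, and 0 to 1 with libraries left out. Over all genes, the count higher by adjusted p went from 1957 to 1281 with a filter at 5 FPKM, where fewer genes were tested, and the count past both limits from 367 to 654 with a pseudocount of 0.1, which enlarges fold changes of weakly expressed genes by construction.

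Same-numbered libraries did not deviate together throughout (correlations of their deviations from the genotype means ran from -0.096 to 0.159, 2 of 4 pairs above 0.1, and 3 of 8 libraries were most like their own number). With the replicate block, 1835 genes were lower and 2085 higher, against 1738 and 1957 without it, and the calls for the 7 genes tested were unchanged. Within replicates 1 and 2 the log2 difference was -1.18 for Fyn and 1.01 for Src, and within replicates 3 and 4 it was -1.32 and 0.92. Without counts, depth limits what can be said of Lck, Fgr and Blk.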
